A study of Mus musculus with 8 samples.

Results

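A set of 10 genes for secreted proteins of the extracellular matrix were examined: Fn1, Thbs1, Thbs2, Tnc, Postn, Sparc, Eln, Fbn1, Vcan and Dcn. These were taken by symbol from a deposited table of 22274 mouse genes, and each of the 10 symbols matched 1 row. The table covers 8 RNA-seq libraries of RFB cells, a line from mouse kidney whose cell type is given as fibroblast. All 8 were treated with TGF-β, the cytokine that drives matrix production. The 4 ad-CRE libraries come from cells given an adenovirus labelled for Cre, the recombinase that cuts out DNA between loxP sites, and the 4 ad-GFP libraries from cells given one labelled for GFP, a fluorescent protein. The series text names Suv39h1, a histone H3 lysine 9 methyltransferase, as the gene targeted, and no floxed allele is described in the labels. There is no group without TGF-β, so every value below is a level under that cytokine. Whether the 4 replicates of a group were grown separately is not stated, and p-values therefore speak only of library-to-library spread, part of which may be technical.

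Library totals were 17572152 to 22297598 counts in ad-CRE and 15998257 to 20920828 counts in ad-GFP. Suv39h1 had 32.3, 32.9, 33.4 and 31.5 CPM (counts scaled to a common library size) in ad-CRE replicates 1 to 4, and 37.1, 43.6, 44.1 and 41.3 CPM in ad-GFP replicates 1 to 4. Every fold change below is ad-CRE over ad-GFP, and on the log2 scale that of Suv39h1 was -0.35 (SE 0.053, edgeR adjusted p = 8.65e-07). Smarca4, which encodes the chromatin remodelling ATPase BRG1, was at 34.3 ± 3.20 CPM in ad-CRE and 287.5 ± 11.1 CPM in ad-GFP (SD, n = 4 each), and its log2 fold change was -3.07 (SE 0.0441, edgeR adjusted p = 3.82e-31). Suv39h1 thus kept 78.3% of its ad-GFP level and Smarca4 11.9%, so the larger loss was not that of the gene named as the target. Gene totals do not show whether an exon was cut out of either, and ad-CRE against ad-GFP is read below as a comparison of the labelled libraries. In the marker lists that follow, counts stand beside 73.1% of all genes tested that passed, with 36.8% higher and 36.3% lower in ad-CRE. List totals also include genes with too few reads for the test. Of 14 fibroblast markers 8 fell, 1 rose and 5 had too few reads for the test, among them Lum and Dpt, which held at most 1 read per group. Vim, its most abundant gene, was at 315 FPKM (a count scaled by gene length) in ad-CRE and 747 FPKM in ad-GFP, and Col1a1 at 9.96 FPKM in ad-CRE and 28.9 FPKM in ad-GFP. Summed over that list, levels were 335 to 360 FPKM in ad-CRE and 792 to 831 FPKM in ad-GFP. Of 16 tubular epithelial markers 12 rose and 2 fell, with sums of 2839.8 to 2949.9 FPKM in ad-CRE and 1324 to 1469.8 FPKM in ad-GFP, and Krt8 alone at 1003 FPKM in ad-CRE and 384 FPKM in ad-GFP. Those that fell were Cdh16 and Lrp2. Cdh16 was at 54.2 FPKM in ad-CRE and 88.4 FPKM in ad-GFP (log2 fold change -0.66, edgeR adjusted p = 4.4e-17). Lrp2 was at 3.58 FPKM in ad-CRE and 5.365 FPKM in ad-GFP (log2 fold change -0.55, edgeR adjusted p = 8.11e-13). All 12 endothelial markers fell (sums of 33.8 to 40.7 FPKM in ad-CRE and 78.3 to 85.2 FPKM in ad-GFP), as did 7 of 10 leukocyte markers, with 0 that rose (96.7 to 102 FPKM in ad-CRE and 146 to 169 FPKM in ad-GFP). Of 9 mural and smooth muscle markers 6 fell and 1 rose, with sums of 1009 to 1063 FPKM in ad-CRE and 1626 to 1731 FPKM in ad-GFP. The one that rose, Notch3, a receptor of smooth muscle and pericytes, had the largest change of that list, at 7.22 FPKM in ad-CRE and 1.77 FPKM in ad-GFP (log2 fold change 2.10, edgeR adjusted p = 3.97e-24). Most of the mural and smooth muscle sums came from Acta2 and Tagln. Acta2 was at 579 FPKM in ad-CRE and 859.5 FPKM in ad-GFP, and Tagln at 364 FPKM in ad-CRE and 643.5 FPKM in ad-GFP. The leukocyte marker Cd3e had 0 reads in all libraries. The part of these shifts in the results below was not tested, and in bulk RNA fewer cells of a type and less RNA per cell cannot be told apart.

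Matrix glycoproteins give cells their footing and store growth factors. Fibronectin is assembled by integrins into fibrils on which collagen and fibrillin are later laid down, and it accumulates early in renal scarring. Thrombospondins, tenascin C, periostin and SPARC are matricellular proteins, which change how cells respond to the matrix rather than bearing load. Fibrillin 1 forms the microfibrils on which elastin is deposited, versican is a large proteoglycan that binds hyaluronan, and decorin is a small proteoglycan that binds collagen fibrils and TGF-β.

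Only 4 of the genes supplied nearly all of the set's counts, a measure in which long genes weigh more. Fn1, Thbs1, Tnc and Sparc together held 99.3% ± 0.0225 of the set's counts in ad-CRE and 98.8% ± 0.0635 in ad-GFP (SD, n = 4 each), and Fn1 alone held 75.8% ± 0.238 and 74.5% ± 0.716. Among all genes in the table, Fn1 ranked 1 by mean count in ad-CRE and 2 in ad-GFP, an order that favours long genes. By mean FPKM it ranked 11 in ad-CRE and 12 in ad-GFP. The 10 genes together took 3.27%, 3.31%, 3.39% and 3.23% of all counts in ad-CRE replicates 1 to 4, and 2.77%, 2.60%, 2.65% and 2.66% in ad-GFP replicates 1 to 4. The ad-CRE shares did not overlap those of ad-GFP. The difference was 0.63 percentage points, at the smallest p that an exact two-sided permutation test of 4 against 4 libraries can give (0.0286). Without Fn1 the share of the other 9 genes was 0.798% ± 0.00965 in ad-CRE and 0.682% ± 0.0238 in ad-GFP (exact permutation p = 0.0286). Thbs1 alone accounted for 0.461% in ad-CRE and 0.256% in ad-GFP. Its rise of 0.205 percentage points exceeded the 0.116 of the 9 genes together. Without Fn1 and Thbs1, the rest therefore took a smaller share in ad-CRE. The shares of Fn1 alone and of Thbs1 alone did not overlap between groups. The p-values of the summed shares mostly restate the rises of these genes and are no test of the set as a whole.

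The order of levels was compared in the authors' FPKM, since only a value per gene length can be compared between genes. In ad-CRE the order was Fn1 at 3182 ± 74.1 FPKM, Thbs1 at 788 ± 7.75, Tnc at 351 ± 15.6, Sparc at 315 ± 14.6, Vcan at 20.3 ± 0.613, Fbn1 at 6.15 ± 0.169, Postn at 2.61 ± 0.292, Thbs2 at 0.290 ± 0.0356, Dcn at 0.205 ± 0.105 and Eln at 0.113 ± 0.0802 FPKM (SD, n = 4). In ad-GFP it was Fn1 at 2527 ± 76.4 FPKM, Sparc at 609 ± 25.3, Thbs1 at 438 ± 16.8, Tnc at 380 ± 13.5, Vcan at 19.5 ± 1.49, Fbn1 at 11.4 ± 0.0963, Postn at 4.99 ± 1.12, Dcn at 2.22 ± 0.217, Thbs2 at 0.603 ± 0.116 and Eln at 0.095 ± 0.0311 FPKM (SD, n = 4). Sparc, next after Fn1 in ad-GFP, came after Thbs1 and Tnc in ad-CRE. Neighbours in the ad-GFP order did not overlap in any library, whereas in ad-CRE the ranges of Tnc and Sparc overlapped, as did those of Thbs2 and Dcn and of Dcn and Eln. The 3 lowest genes in ad-CRE rest on 137 reads or fewer over the 4 libraries.

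**Figure D1:**
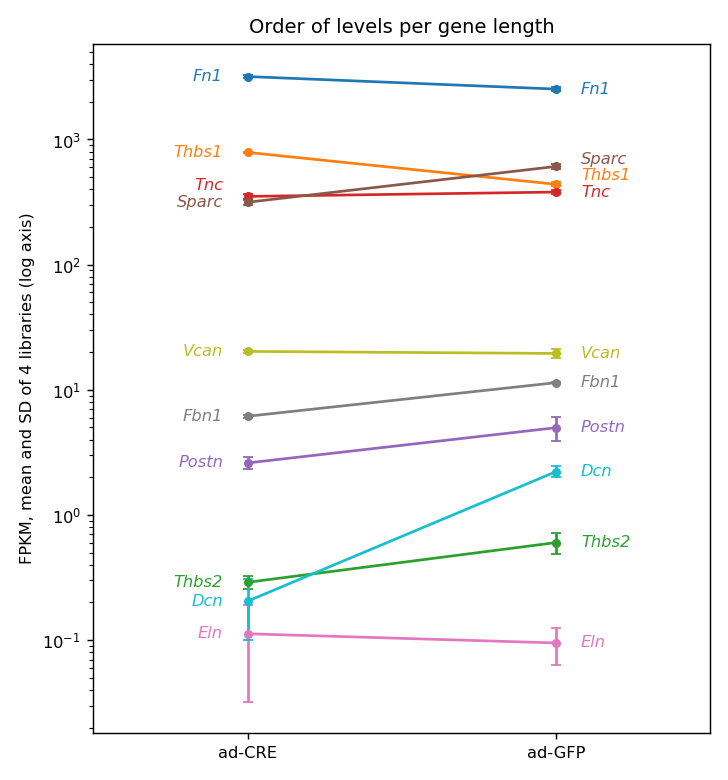
Mean FPKM of each of the 10 genes on a log axis, ad-CRE on the left and ad-GFP on the right, with bars of 1 SD over 4 libraries. The Sparc line crosses those of Thbs1 and Tnc, and the Dcn line crosses that of Thbs2.

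Strand use in the counting is not known, and Fn1, Thbs1, Tnc, Eln, Fbn1 and Vcan each overlap a gene on the other strand, so their counts may include its reads. Of the 10 genes, 9 had enough reads for the test. Thbs1 and Fn1 rose, Dcn, Thbs2, Sparc, Fbn1, Postn and Tnc fell, Vcan did not pass, and Eln was not tested. The 8 genes that passed stand beside a background of 73.1% of the 13702 genes tested, with 36.8% higher and 36.3% lower in ad-CRE (edgeR, adjusted p under 0.05 by the Benjamini-Hochberg method). Groups did not overlap in 7 of the 9 genes, where 66.2% of all genes tested did not overlap. The median log2 fold change of the 9 was -0.86, and that of all genes tested was 3.9e-05. The authors' deposited table gives log2 fold changes of the same sign for all 9, between -3.44 for Dcn and 0.85 for Thbs1.

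**Figure D2:**
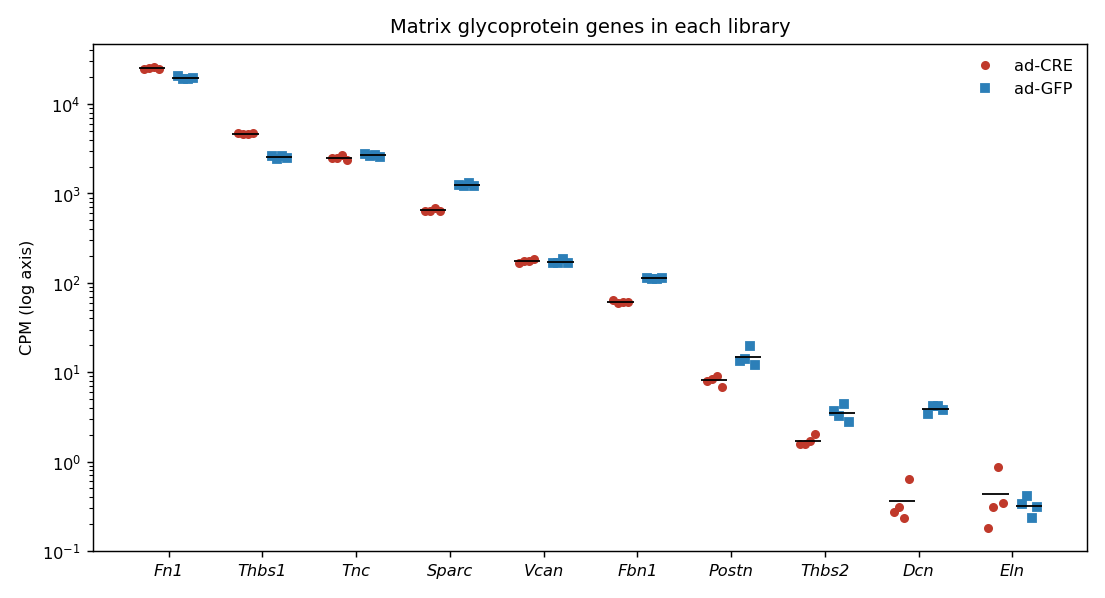
CPM of the 10 genes in each library on a log axis, ad-CRE as red circles left of ad-GFP as blue squares, with a line at each group's mean. Fn1 and Thbs1 are higher in ad-CRE, Sparc, Fbn1, Postn, Thbs2 and Dcn lower, and the groups overlap for Tnc, Vcan and Eln.

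Fn1 encodes fibronectin (ENSMUSG00000026193, GRCm38 chromosome 1, 71585520 to 71653200, minus strand). It had 24946, 25369.9, 26007 and 24704 CPM in ad-CRE replicates 1 to 4, and 20468, 19167, 19315 and 19832 CPM in ad-GFP replicates 1 to 4. The lowest ad-CRE library lay above the highest ad-GFP library. The rise was 1.28-fold, or 0.36 on the log2 scale (SE 0.0191, edgeR adjusted p = 9.69e-17), close to the median absolute change of 0.32 over all genes tested. The gene rested on 2031107 reads in ad-CRE and 1463138 reads in ad-GFP, so counting error was small, and libraries of a group differed by 2.26% and 2.99% of their mean (coefficient of variation).

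Thbs1, for thrombospondin 1, a trimeric protein that can activate latent TGF-β, had the larger of the 2 rises (ENSMUSG00000040152, chromosome 2, 118111876 to 118127133, plus strand). Its levels were 4690.4, 4622, 4603 and 4694 CPM in ad-CRE replicates 1 to 4, and 2637, 2429, 2599.9 and 2488 CPM in ad-GFP replicates 1 to 4. The groups lay far apart relative to their spread, with means of 4652 ± 46.7 and 2539 ± 96.5 CPM (SD, n = 4 each). The log2 fold change was 0.87 (SE 0.0221, edgeR adjusted p = 5.21e-25), a 1.83-fold rise. Thbs2, for thrombospondin 2, a close relative made by fibroblasts (ENSMUSG00000023885, chromosome 17, 14665500 to 14694235, minus strand), was scarce and went the other way. It was counted with 35, 30, 37 and 35 reads in ad-CRE replicates 1 to 4, and 78, 63, 76 and 45 reads in ad-GFP replicates 1 to 4. Scaled, it was at 1.72 ± 0.209 CPM in ad-CRE and 3.52 ± 0.680 CPM in ad-GFP (SD, n = 4 each), with no overlap, and the log2 fold change was -1.04 (SE 0.183, edgeR adjusted p = 8.4e-06). With limma on log2(FPKM + 1), which understates changes of low genes, it was -0.31.

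Tnc encodes tenascin C, an adhesion-modulating glycoprotein induced in wounds (ENSMUSG00000028364, chromosome 4, 63959785 to 64047015, minus strand). It had 2478, 2515, 2663 and 2398 CPM in ad-CRE replicates 1 to 4, and 2768, 2639, 2725 and 2562 CPM in ad-GFP replicates 1 to 4. Ad-CRE replicate 3 lay above 2 ad-GFP libraries, so the groups overlapped. The fall was to 94.0% of the ad-GFP level (log2 fold change -0.09, SE 0.0259, edgeR adjusted p = 0.00297). Of the 8 genes that passed, this was the smallest change.

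Sparc encodes osteonectin, a collagen-binding matricellular protein (ENSMUSG00000018593, chromosome 11, 55394500 to 55423183, minus strand). It was at 640, 634, 681 and 629 CPM in ad-CRE replicates 1 to 4, and 1236, 1203, 1320 and 1197 CPM in ad-GFP replicates 1 to 4. Each ad-CRE library was well below each ad-GFP library. The level fell to 52.1% (log2 fold change -0.94, SE 0.0283, edgeR adjusted p = 4.95e-23). Postn, for periostin, a fasciclin-domain protein that joins tenascin C, fibronectin and collagen (ENSMUSG00000027750, chromosome 3, 54361109 to 54391037, plus strand), was far less abundant. Its levels were 8.05, 8.37, 9.06 and 6.85 CPM in ad-CRE replicates 1 to 4, and 13.44, 13.97, 19.76 and 11.92 CPM in ad-GFP replicates 1 to 4. Groups did not overlap, but ad-GFP replicate 3 stood well above its group, and ad-GFP libraries differed by 23.3% of their mean where counting alone would give 6.05%. The log2 fold change was -0.86 (SE 0.116, edgeR adjusted p = 9.93e-08), and without ad-GFP replicate 3 it was -0.70.

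The elastic fibre genes Fbn1 and Eln stood at different depths. Fbn1, for the microfibril protein fibrillin 1 (ENSMUSG00000027204, chromosome 2, 125300594 to 125507993, minus strand), had 63.7, 60.0, 61.0 and 60.7 CPM in ad-CRE replicates 1 to 4, and 112.3, 110.3, 111.5 and 113 CPM in ad-GFP replicates 1 to 4. The groups were well apart, and the spread was no larger than reads alone would give, at 2.62% in ad-CRE and 1.04% in ad-GFP beside 2.85% and 2.20% from counting. The log2 fold change was -0.86 (SE 0.035, edgeR adjusted p = 9.7e-20). Eln, for elastin (ENSMUSG00000029675, chromosome 5, 134702593 to 134747323, minus strand), was counted with 4, 6, 19 and 6 reads in ad-CRE replicates 1 to 4, and 7, 8, 4 and 5 reads in ad-GFP replicates 1 to 4. It did not reach the read minimum of the test, and ad-CRE replicate 3 held most of the ad-CRE reads. Tested with no filter beyond 1 read, its log2 fold change was 0.44 (edgeR adjusted p = 0.444), so no difference was detectable at this depth.

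Of the proteoglycans, Vcan, for versican (ENSMUSG00000021614, chromosome 13, 89655312 to 89742509, minus strand), had 168, 177, 174 and 182 CPM in ad-CRE replicates 1 to 4, and 166, 167, 186 and 166 CPM in ad-GFP replicates 1 to 4. The groups overlapped through ad-GFP replicate 3, the highest of all 8. The log2 fold change was 0.03, with a 95% interval of -0.04 to 0.10 (edgeR adjusted p = 0.401). Without ad-GFP replicate 3 it passed at 0.08 (edgeR adjusted p = 0.0374). Dcn, for decorin (ENSMUSG00000019929, chromosome 10, 97479609 to 97518143, plus strand), had the largest fall of the set. It was counted with 6, 6, 5 and 11 reads in ad-CRE replicates 1 to 4, and 72, 81, 73 and 60 reads in ad-GFP replicates 1 to 4. The level was 10.7-fold lower, at 0.362 ± 0.184 CPM in ad-CRE and 3.87 ± 0.373 CPM in ad-GFP (SD, n = 4 each; log2 fold change -3.44, SE 0.253, edgeR adjusted p = 2.56e-13). It was -3.80 without ad-CRE replicate 4, which held 11 of the 28 ad-CRE reads, and -1.42 on the log2(FPKM + 1) scale.

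**Figure D3:**
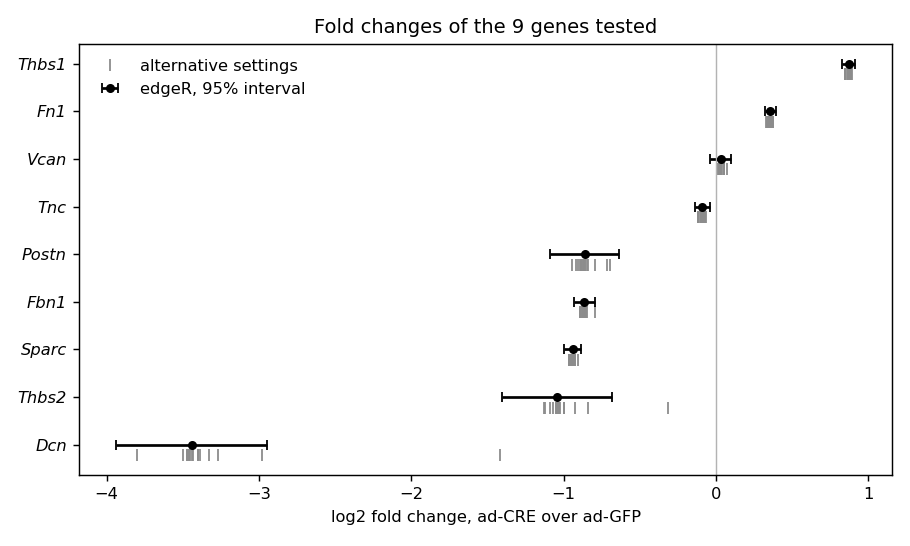
Log2 fold changes of the 9 genes tested, ad-CRE over ad-GFP, as points with 95% intervals from the edgeR standard errors, and grey ticks for the alternative settings. Thbs1 and Fn1 lie above 0, the interval of Vcan spans 0, and Dcn lies furthest below.

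Ratios within a library do not depend on how libraries are scaled, and 4 were compared. Thbs1 over Thbs2 was 2946, 3015, 2687 and 2334 in FPKM in ad-CRE replicates 1 to 4, and 723, 763, 599 and 893 in ad-GFP replicates 1 to 4, so the 2 thrombospondins diverged by a log2 difference of 1.89. Vcan over Dcn was 130, 112, 157 and 58.2 in ad-CRE replicates 1 to 4, and 9.58, 7.71, 8.96 and 9.06 in ad-GFP replicates 1 to 4, a log2 difference of 3.61. Fn1 over Tnc, both abundant, was 9.08, 9.10, 8.82 and 9.31 in ad-CRE replicates 1 to 4, and 6.68, 6.54, 6.40 and 6.98 in ad-GFP replicates 1 to 4, a log2 difference of 0.45. In these 3 ratios the lowest ad-CRE value exceeded the highest ad-GFP value (exact two-sided permutation p = 0.0286 each, the smallest possible, 0.0381 after Benjamini-Hochberg adjustment over the 4 ratios). These ratios restate changes given above for single genes, so their p-values are no further support. Thbs1 rose and Thbs2 fell with no overlap, which fixed the separation of their ratio before the test. Vcan over Dcn mostly restates the fall of Dcn. Fbn1 over Eln did not pass: 128, 75.4, 26.5 and 67.4 in ad-CRE replicates 1 to 4, and 127, 80.6, 163 and 144 in ad-GFP replicates 1 to 4 (log2 difference -0.95, exact permutation p = 0.0857, adjusted 0.0857). That difference was -0.52 without ad-CRE replicate 3.

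**Figure D4:**
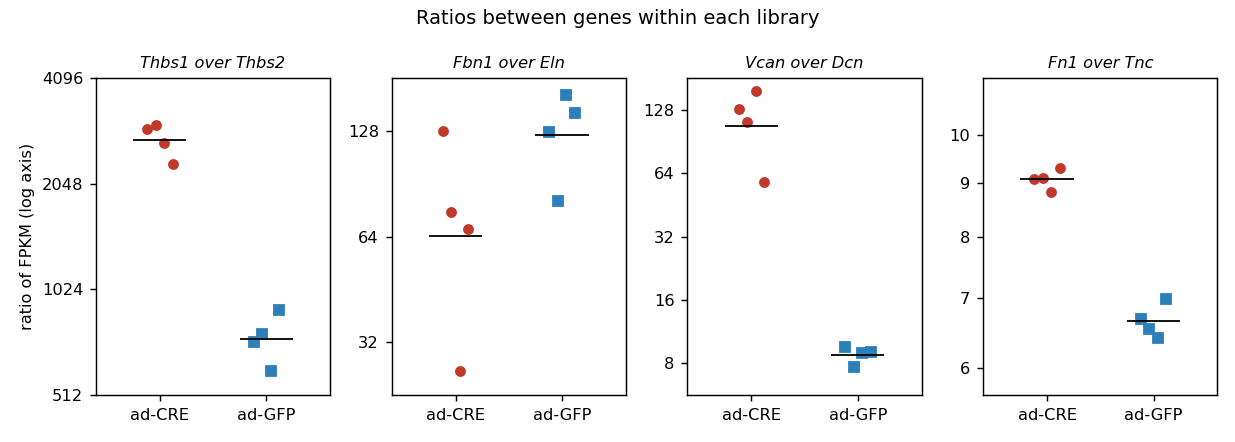
Ratio of FPKM between 2 genes in each library, on log axes that do not start at 0, with ad-CRE left of ad-GFP and a line at each group's geometric mean. The groups are apart for Thbs1 over Thbs2, Vcan over Dcn and Fn1 over Tnc, and overlap for Fbn1 over Eln.

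Related genes were read from 7 family lists. Without the 10 genes above they hold 65 genes, of which 44 had enough reads: 14 rose, 21 fell and 9 missed the threshold (median log2 fold change -0.25, against 3.9e-05 over all genes tested). Among all genes tested 73.1% passed, with 36.8% higher and 36.3% lower in ad-CRE. The counts of each list below, receptors included, stand beside these shares. In the thrombospondin family Thbs3 fell by 1.09 on the log2 scale (edgeR adjusted p = 4.34e-12), and Thbs1 rose alone among the 3 tested. Comp, the cartilage thrombospondin, had only 46 reads in ad-CRE and 11 reads in ad-GFP and was not tested. Of 6 tenascin and fasciclin genes, 3 fell and 1 of the 4 tested did not pass (median -0.31), with Tgfbi, a relative of periostin, at 7.14 ± 0.320 FPKM in ad-CRE and 9.38 ± 1.10 FPKM in ad-GFP (SD over 4 libraries; log2 fold change -0.37, edgeR adjusted p = 2.71e-05), while Tnxb had -0.25 (edgeR adjusted p = 0.544). In the SPARC family 5 of the 6 tested fell and 0 rose (median -0.79). Fstl1, its next most abundant gene, was at 38.4 ± 0.881 FPKM in ad-CRE and 65.5 ± 1.47 FPKM in ad-GFP (SD over 4 libraries; log2 fold change -0.75, edgeR adjusted p = 2.41e-20), and Smoc2, which encodes a calcium-binding matricellular protein, had -0.86 (edgeR adjusted p = 5e-07).

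Elastic fibre genes were mixed: among 16 with enough reads, 8 fell and 4 rose, and the other 4 missed the threshold (median -0.24). Fbln2, for fibulin 2 and more abundant than Fbn1, was at 139 ± 4.57 FPKM in ad-CRE and 128 ± 4.27 FPKM in ad-GFP (SD over 4 libraries; log2 fold change 0.15, edgeR adjusted p = 1.54e-05). Ltbp2, for a fibrillin-like protein of the latent TGF-β binding family, rose by 0.86 (edgeR adjusted p = 1.27e-15). Among those that fell, Efemp1, for fibulin 3, was at 7.02 FPKM in ad-CRE and 12.1 FPKM in ad-GFP (log2 fold change -0.71, edgeR adjusted p = 1.1e-10). Loxl1, for an enzyme that crosslinks elastin, had -0.46 (edgeR adjusted p = 2.65e-09). Of the hyalectans and link proteins only 2 of 8 were tested, Vcan and the link protein gene Hapln4, which rose by 0.99 (edgeR adjusted p = 0.000119) on 225 reads in ad-CRE and 104 reads in ad-GFP. Of the small leucine-rich proteoglycans 6 of 13 were tested, of which 3 fell, 2 rose and 1 missed the threshold (median -0.48). Bgn, for biglycan, the nearest relative of decorin, was at 8.09 ± 0.300 FPKM in ad-CRE and 15.3 ± 0.683 FPKM in ad-GFP (SD over 4 libraries; log2 fold change -0.89, edgeR adjusted p = 3.86e-15). Ecm2, at 16 reads in ad-CRE and 106 reads in ad-GFP, had -2.80 (edgeR adjusted p = 2.52e-08), and Ogn, for osteoglycin, rose by 0.58 (edgeR adjusted p = 0.00117).

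Receptors that bind fibronectin or thrombospondins moved in both directions, with 7 higher, 6 lower and 2 that missed the threshold among 15 (median -0.05). Itga5, the α chain of the main fibronectin receptor, was at 39.1 ± 0.160 FPKM in ad-CRE and 91.0 ± 2.41 FPKM in ad-GFP (SD over 4 libraries; log2 fold change -1.19, edgeR adjusted p = 2.67e-26). Itgav, the α chain of the receptors that bind the RGD sequence of fibronectin and other ligands, was at 137 ± 2.22 FPKM in ad-CRE and 74.0 ± 3.06 FPKM in ad-GFP (log2 fold change 0.93, edgeR adjusted p = 1.57e-23). Their shared partner Itgb1 rose by 0.44 and Itga3, a laminin receptor chain, by 0.43 (edgeR adjusted p = 6.95e-19 and 9.23e-16).

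**Figure D5:**
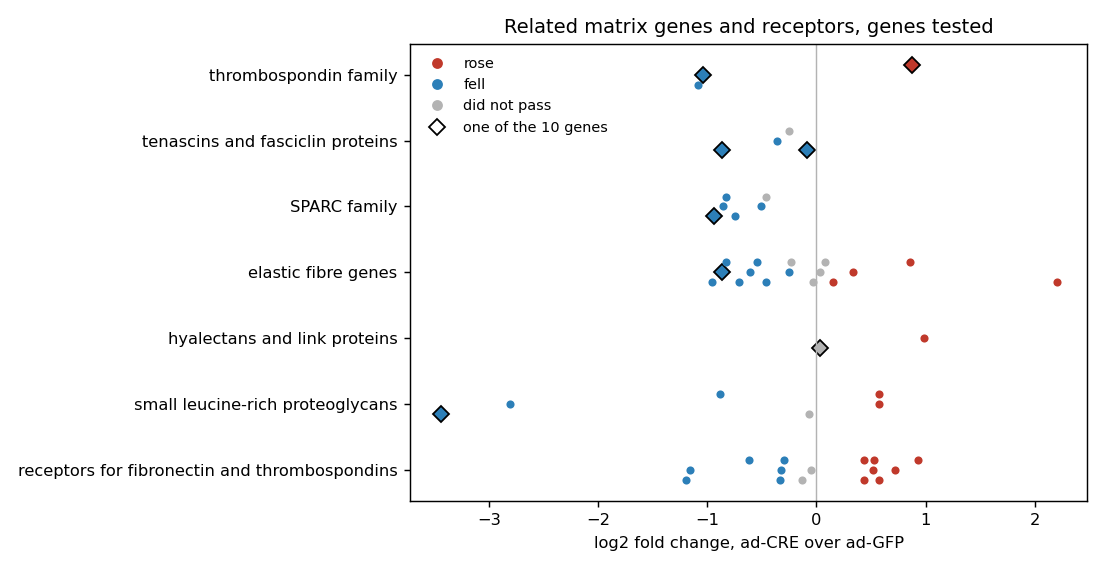
Log2 fold changes, ad-CRE over ad-GFP, of the genes tested in 7 lists related to the 10 genes, coloured by direction where they passed and grey where they did not, with black-edged diamonds for the 10 genes. All tested genes of the SPARC family lie below 0, and the receptors lie on both sides.

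Promoter windows were found in the RefSeq table (GRCm38.p6) for 6 of the 10 genes: Fbn1, Postn, Sparc, Thbs2, Tnc and Vcan. The 250 bases before the start are shown for Postn and Thbs2, low genes that fell, and for Tnc and Vcan, which changed least. Coordinates are chr3:54360857-54361106 (plus strand) for Postn, chr17:14694263-14694512 (minus) for Thbs2, chr4:64047016-64047265 (minus) for Tnc and chr13:89742513-89742762 (minus) for Vcan. Each is written 5′ to 3′ on the strand of its gene, with capitals at matches on either strand to 6 motifs. The TATA box was searched as TATAAA, the CCAAT box by the letters of its name, the GC box as GGGCGG, the SMAD box as CAGAC and the cyclic AMP response element as TGACGTCA, and the AP-1 motif was searched as TGANTCA.
Postn: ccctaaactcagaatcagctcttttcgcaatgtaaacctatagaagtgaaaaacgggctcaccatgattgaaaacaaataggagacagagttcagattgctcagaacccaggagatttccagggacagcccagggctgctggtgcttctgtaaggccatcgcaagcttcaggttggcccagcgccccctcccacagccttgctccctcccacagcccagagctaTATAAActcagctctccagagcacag
Thbs2: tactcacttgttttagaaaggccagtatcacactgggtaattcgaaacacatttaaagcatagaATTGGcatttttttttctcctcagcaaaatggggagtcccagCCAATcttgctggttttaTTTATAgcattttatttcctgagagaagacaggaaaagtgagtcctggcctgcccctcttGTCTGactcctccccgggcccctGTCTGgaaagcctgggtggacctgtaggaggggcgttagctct
Tnc: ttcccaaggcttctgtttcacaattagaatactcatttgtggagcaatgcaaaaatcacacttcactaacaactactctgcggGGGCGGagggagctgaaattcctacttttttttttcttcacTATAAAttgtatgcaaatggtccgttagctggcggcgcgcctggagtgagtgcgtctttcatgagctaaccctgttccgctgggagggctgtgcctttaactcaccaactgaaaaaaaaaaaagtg
Vcan: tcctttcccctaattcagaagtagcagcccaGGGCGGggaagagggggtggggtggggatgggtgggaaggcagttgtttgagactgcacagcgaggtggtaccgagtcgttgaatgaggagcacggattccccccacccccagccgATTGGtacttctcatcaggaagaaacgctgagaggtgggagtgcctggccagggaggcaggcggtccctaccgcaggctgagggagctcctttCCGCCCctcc

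Both Postn and Tnc have a further window in the table, which is not shown. The Postn window above held 1 TATA box, 26 bases before the start. Thbs2 held 1 TATA box, 126 bases before the start and on the opposite strand, 2 CCAAT boxes and 2 SMAD boxes. Tnc held 1 TATA box, 126 bases before the start, and 1 GC box, and Vcan 1 CCAAT box and 2 GC boxes. Of the windows not shown, that of Sparc and the further one of Postn each held 1 SMAD box. The further Tnc window held 1 TATA box, 1 GC box and 1 SMAD box, and that of Fbn1 held 1 GC box. Over all 32851 windows in the table, 12.4% held a TATA box, 33.8% a CCAAT box, 32.7% a GC box, 6.75% an AP-1 motif, 42.2% a SMAD box and 1.55% a cyclic AMP response element. None of the 8 windows of the 6 genes held an AP-1 motif or a cyclic AMP response element. A match describes these letters only, and no binding was measured.

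The deposited count, FPKM and library total together imply a gene length for each library, a measure chosen after its values were seen. Where it varies between libraries, the whole-number counts may be rounded estimates shared out over transcripts rather than direct read counts. For Thbs1 it was 5848 bases in all 8 libraries, the length of its 1 coding transcript in GENCODE M21. Fn1, which has 9 coding transcripts of 671 to 8315 bases, varied little, at 7858 to 7869 bases in ad-CRE and 7860 to 7881 bases in ad-GFP. Vcan, with 8 coding transcripts of 294 to 12427 bases, had implied lengths of 8534, 8674, 8437 and 8615 bases in ad-CRE replicates 1 to 4, and 8949, 9182, 8670 and 8644 bases in ad-GFP replicates 1 to 4. The ad-CRE values were lower by 3.34% on average with an overlap between groups, and did not pass (exact two-sided permutation p = 0.0857, unadjusted). Reads per exon are not analysed here, so which transcripts of Fn1, Tnc or Vcan were made cannot be told from these gene totals.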

How the data were processed

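An RNeasy kit served for extraction and a SMARTer mRNA-Seq kit for library construction, per the labels' protocols. The builds GRCm38 and mm10 are named in the submitters' processing notes. The sources used here do not give the aligner, the counter, its use of strand or the authors' test, so reads of overlapping antisense genes cannot be told apart. The deposited table holds whole-number counts and FPKM values per library, per the file headers. It also holds the authors' log2 fold change of mean FPKM, ad-CRE over ad-GFP, and the authors' p-value and FDR. For some genes the length implied by count and FPKM varies between libraries. The counts may therefore be estimates that were rounded, and the word reads stands for these counts.

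Counts were tested with edgeR 4.0.16 in R 4.3.3: filterByExpr (minimum count 10), TMM scaling, the quasi-likelihood test with group as the only term, and Benjamini-Hochberg adjustment over 13702 genes at 0.05. The fit was run on simulated data in which far fewer genes changed than passed here. That run does not test the scaling where most genes change. CPM values are counts after TMM scaling. The SE is the log2 fold change divided by the square root of F, and 95% intervals use the normal quantile and include the spread between libraries. A single value was compared by the exact two-sided permutation test over libraries (scipy 1.17.1). Gene positions are from GENCODE M21 (GRCm38), in which 22219 of the 22274 IDs were found.

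The members, the gene lists, the rule for named genes and the alternatives were chosen with earlier results of these data known. Named beside the members are Suv39h1, Smarca4, and genes from each family list with the highest FPKM or the smallest p (the 2 highest of a marker list). Not every gene that rule takes is named, and Lum, Dpt, Cdh16, Lrp2, Cd3e, Notch3, Efemp1 and Loxl1 were named after their values were seen. Of the elastic fibre genes, 1 that the rule takes is not reported here. Alternatives were DESeq2 size factors, total counts only, 2 other filters, DESeq2 1.42.0, limma 3.58.1 voom, limma on log2(FPKM + 1) and log2(FPKM + 0.1), the replicate number as a block, and each library left out. Replicate libraries were all kept, since each pair differed beyond sampling noise (1.69 to 3.25 units of chi-square per degree of freedom).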

Additional observations from a re-analysis of the deposited data

Results flagged for a closer look

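Vcan in ad-GFP replicate 3 stood apart from its group, at 186 CPM against 166, 166 and 167 CPM in the other 3 ad-GFP libraries. The gap was 0.952 of the group's range. Chance flags about 1 group in 20, and 36 groups of 4 were examined over the genes, ratios and shares, of which 1 was flagged. The same library held the highest ad-GFP level of 5 of the 10 genes, Thbs2, Postn, Sparc, Vcan and Dcn, and the cause was not tested.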

How the results depend on the processing

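In all 17 alternatives 2 or 3 of the 10 genes were higher and 4 to 6 lower, within 1.5 times the main counts. The count of 3 came without ad-GFP replicate 3, where Vcan passed. The count of 4 came with the filter of 5 CPM in 4 libraries, which left Dcn and Thbs2 out. No log2 fold change of a gene tested changed sign. Fn1 ranged from 0.33 to 0.38, Thbs1 from 0.85 to 0.89, Sparc from -0.97 to -0.91, Fbn1 from -0.89 to -0.80, Postn from -0.94 to -0.70, Tnc from -0.12 to -0.07, Thbs2 from -1.13 to -0.31 and Dcn from -3.80 to -1.42. Counts of small families moved most. With no filter beyond 1 read, 2 thrombospondin genes were higher (1 in the main test), 3 hyalectans and link proteins lower (0) and 5 small leucine-rich proteoglycans lower (3). With the 5 CPM filter, 1 thrombospondin gene (2), 3 SPARC genes (5) and 1 small leucine-rich proteoglycan (3) were lower, and 0 hyalectans or link proteins (1) and 0 small leucine-rich proteoglycans (2) higher. Leaving out 1 library gave 0 to 2 hyalectans and link proteins lower, and 2 higher without ad-GFP replicate 3. Over the 17 alternatives 4 to 6 receptors were lower (6 in the main test) and 7 higher throughout, and 3 to 5 SPARC genes were lower (5). Among all genes tested, 8366 to 10765 passed, and with the replicate block 9963 did. Same-numbered libraries did not deviate together (correlations -0.0632 to 0.0662 over 4 pairs, 1 of 4 ad-CRE libraries closest to its own number), so the numbers were not taken as pairs. The block left the counts at 2 higher and 6 lower. The difference in the share of counts was 0.601 to 0.663 percentage points when 1 library was left out. With 3 against 4 libraries an exact test cannot go below 0.0571, so the ratios were then compared as values: 1.79 to 1.98 for Thbs1 over Thbs2, 3.43 to 3.90 for Vcan over Dcn and 0.43 to 0.47 for Fn1 over Tnc. Depth limits Eln, Dcn and Thbs2, at 35, 28 and 137 reads over the ad-CRE group, and 24, 286 and 262 over the ad-GFP group.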
